A study of Mus musculus with 12 samples.

Results

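The proteasome subunits are described here at the level of their transcripts in mouse oocytes. The members are the genes whose symbol begins with Psm, 1 letter from a to g and a number, which 50 of the 24255 genes of the deposited table do. By the role of the product they are 8 genes of 20S alpha subunits, 11 of 20S beta subunits, 6 of 19S ATPases, 11 of 19S non-ATPase subunits, 6 of activators and an inhibitor, and 7 of assembly chaperones. The remaining 1, Psmc3ip, fits the symbol pattern but encodes a partner of the meiotic recombinases and no proteasome subunit.

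The series holds 12 RNA-Seq libraries prepared by Smart-seq2, each from 20 oocytes of C57BL/6 mice aged 3 weeks, taken 46 h after priming with 5 IU PMSG, the gonadotropin that starts follicle growth. There were 4 groups of 3 libraries: wild type (WT), D166G (MUT), Dpagt1F/F Gdf9CRE/+ (GcKO) and Dpagt1F/F Amhr2CRE/+ (AmcKO). D166G is a missense mutation of Dpagt1 carried in every cell of the animal, the Gdf9 promoter drives Cre in oocytes, and the Amhr2 promoter drives it in granulosa cells, so that AmcKO oocytes themselves keep the floxed gene. The label of the WT group names no floxed allele and no Cre. Neither the labels nor the methods say whether the libraries of a group came from separate animals.

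DPAGT1 catalyses the first step of N-glycan assembly on the endoplasmic reticulum membrane, and glycoproteins that do not fold are sent from there to the proteasome. The proteasome degrades proteins tagged with ubiquitin in a barrel, the 20S core, whose outer alpha rings gate the entry and whose inner beta rings hold the proteolytic sites, while the 19S cap binds, unfolds and deubiquitinates the substrate. Growing oocytes store proteasomes and the transcripts that encode them, and protein degradation by the proteasome is needed for the completion of meiosis.

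Values are FPKM, fragments per length of transcript and per depth of the library. The submitters' notes name Cuffnorm and Cuffdiff beside Cufflinks, so a further scaling between libraries may be part of the values, which was not tested. Values are given in the order of the replicate numbers, 4 to 6 in WT and AmcKO and 1 to 3 in MUT and GcKO. If those numbers mark rounds of collection, a round cannot be told apart from the genotype in a comparison of MUT or GcKO with WT or AmcKO. Summed over all genes, a library held 1226005, 1167362 and 1225803 FPKM in WT, 611154, 611597 and 589617 in MUT, 482314, 612604 and 684212 in GcKO, and 967002, 1107925 and 883256 in AmcKO. Every WT sum was thus above every sum of the other groups, and each AmcKO sum above each MUT and GcKO sum. Between 9359 and 9622 genes were above 0 in WT libraries, against 11208 to 11467 for MUT, 10733 to 11608 for GcKO and 10399 to 10921 for AmcKO. The files hold no counts, so the depth is unknown, but low values step in near-whole multiples of 1 fragment. Relative to MUT replicate 2, a WT fragment was worth 2.28 to 2.66, a MUT fragment 1.0 to 1.21, a GcKO fragment 0.901 to 1.51 and an AmcKO fragment 1.21 to 1.51, so scarce transcripts are least precise in WT.

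Dpagt1 itself was listed at 0 in each WT and each AmcKO library, at 0.88, 0.41 and 0.98 FPKM in MUT and at 0, 0.37 and 0 in GcKO. With WT at 0, these values do not check the genotype labels. The 10 oocyte markers, from the zona pellucida genes to Gdf9, Bmp15 and Ddx4, were present, with Dppa3 the most abundant at 7935 to 30143 FPKM. Their summed level was 37634, 35978 and 40355 FPKM in WT, 14761, 15316 and 14731 in MUT, 13475, 17275 and 19593 in GcKO, and 29490.2, 37428 and 28328.5 in AmcKO. It was lower in MUT and GcKO than in WT in every library, and 4 of the 10 markers were called lower in MUT and 3 in GcKO, where 11.3 and 11.4% of all tested genes were. Of the 14 granulosa cell markers, 4 (Amh, Amhr2, Foxl2 and Lhcgr) were at 0 in all libraries and Cyp19a1 was the most abundant at 6.7 to 20.9 FPKM. The 14 summed to 21.0, 23.1 and 17.6 FPKM in WT, 22.7, 17.0 and 31.4 in MUT, 15.6, 17.6 and 29.3 in GcKO, and 13.6, 22.7 and 11.8 in AmcKO. Of the 7 tested, 3 (Inha, Hsd17b1 and Gja1) were called higher in MUT than in WT and in AmcKO, where 9.46 and 1.42% of all tested genes were. These 3 were at 0 in every WT library and reached 1 FPKM only in MUT or GcKO libraries, so their entry into the test depended on the groups where they were high. The other tested markers were not called in MUT against WT, with log2 fold changes of -0.68 (Cyp19a1), -0.04 (Fshr), -0.02 (Kitl) and 0.22 (Nr5a2). The 4 cumulus expansion markers summed to at most 0.765 FPKM in a library, the 8 immune cell markers to at most 3.44 (most abundant Cd68) and the 5 red blood cell markers to at most 1.69 (most abundant Hba-a1). What part RNA from other cells has in the proteasome values was not tested.

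Of the 50 members, 44 reached 1 FPKM in at least 1 library and were tested, and 40 were above 0 in all 12 libraries. The 6 untested ones were the tissue-restricted core subunits Psma8, Psmb8, Psmb9, Psmb10 and Psmb11, and Psme2, a subunit of the interferon-induced activator. Psma8, Psmb9 and Psme2 were listed at 0 everywhere. Mean levels over the 12 libraries spanned 7.08 to 745.8 FPKM among the tested alpha subunits and 8.89 to 409.2 among the tested beta subunits, with medians of 153.1 and 121.1. FPKM is scaled to transcript length, so these levels may be compared between genes. The 50 genes lie on 16 chromosomes, 10 of them on chromosome 11, and 6 each on chromosomes 2 and 14.

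With FPKM as deposited, transcripts of the proteasome core were mostly lower in MUT than in WT oocytes. With every library brought to the same FPKM sum, 5 of 7 alpha and 2 of 7 beta subunits were still below 0, and the median of all tested members was 0.28. Of the 44 tested members, 18 were called lower in MUT (40.9%, where 11.3% of all 11233 tested genes were) and 3 higher (6.82%, against 9.46%), at a limma adjusted p under 0.05. The members' median log2 fold change was -0.48, against 0.12 over all tested genes, a difference of -0.61 before rounding. The 3 higher calls became 1 without WT replicate 5, MUT replicate 2 or MUT replicate 3. In GcKO oocytes, 19 were called lower than in WT (43.2%, against 11.4%) and 2 higher (4.55%, against 8.71%), with a median of -0.59, against 0.12. The 2 higher calls became 1 without WT replicate 5 or GcKO replicate 1 and 3 without WT replicate 4 or GcKO replicate 3. MUT and GcKO were compared with the same WT libraries, so these are not independent counts. Fold changes are on the log2 scale of FPKM + 1, and each ± is the standard error (SE) of the fit with 3 libraries a group.

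With FPKM as deposited, the order of the roles was alike in both comparisons. All 7 tested alpha subunits were called lower in MUT (median -1.05), and so were 4 of 7 beta subunits (-0.83), 2 of 6 ATPases (-0.68), 3 of 11 non-ATPase subunits (-0.14), 1 of 5 activators and inhibitor (0.39) and 1 of 7 chaperones (-0.35). The -0.14 is the value of Psmd13, with an estimated 3 fragments at most in a library, so its sign is not firm. For GcKO the counts were 7 of 7 (-1.16), 5 of 7 (-0.72), 3 of 6 (-0.68), 2 of 11 (-0.29), 1 of 5 (0.42) and 1 of 7 (-0.42). The 0.42 is the value of Psme1, which was above 0 only in GcKO replicate 3 and was tested through that library alone, so this median shows little. The transcripts called lower were also abundant. Members called lower in MUT had a median level of 123.9 FPKM and those called higher 17.4, and over all tested genes the corresponding medians were 88.7 and 6.18. The part that abundance has in the members' calls was not tested.

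The direction depends on how libraries with such different sums are scaled. With every library brought to the same FPKM sum, the median of all tested genes moved to 0.70 in MUT and 0.73 in GcKO against WT, and 4641 of 11233 genes were called higher in MUT and 253 lower. The members were then called lower in 4 cases (9.09%, against 2.25% of all genes) and higher in 16 (36.4%, against 41.3%) in MUT. In GcKO they were called lower in 3 (6.82%, against 2.15%) and higher in 16 (36.4%, against 42.5%). Relative to that all-gene median, the members' median stayed negative, at -0.42 in MUT and -0.33 in GcKO. By role, it was -0.76 relative to all genes for the alpha subunits, -0.53 for the beta subunits, -0.41 for the ATPases, -0.05 for the non-ATPase subunits, 0.64 for the activators and inhibitor and -0.07 for the chaperones in MUT. Quantile normalization gave -0.68, -0.26, -0.43, 0.12, 0.47 and 0.13 in that order and the abundance correction -0.72, -0.25, -0.43, 0.13, 0.46 and 0.11, so that the ATPases lay below the beta subunits and the non-ATPase subunits and chaperones turned positive. In GcKO these 2 gave the non-ATPase subunits 0.16 and 0.11 and the chaperones -0.19 and -0.20. Quantile normalization gave 9 members lower (20.5%, against 6.41% of all genes) and 4 higher (9.09%, against 6.7%) in MUT, and 7 (15.9%, against 5.92%) and 3 (6.82%, against 6.15%) in GcKO. A loess correction for mean abundance gave 9 (20.5%, against 7.53%) and 4 (9.09%, against 6.28%) in MUT, and 9 (20.5%, against 7.05%) and 3 (6.82%, against 5.69%) in GcKO. Counted after the values were seen, 4 of the 18 lower calls in MUT (Psma3, Psma7, Psmb1 and Psmb7) and 2 of the 3 higher calls (Psmd8 and Psme3) were made under each other scaling tried: equal sums, quantile normalization, the abundance correction, and a median-of-ratios scaling that gave nearly the values of the deposited FPKM and so tests little. In GcKO, 3 of 19 (Psma6, Psmb1 and Psmb7) and 1 of 2 (Psme3) were, and each other call on a member was lost under at least 1 scaling. Over all genes, 217 of 1269 lower calls (17.1%) and 495 of 1063 higher calls (46.6%) were made under each scaling in MUT, and 195 of 1286 (15.2%) and 442 of 978 (45.2%) in GcKO. In bulk libraries, less of a transcript per oocyte and more of the other RNA cannot be told apart.

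**Figure D1:**
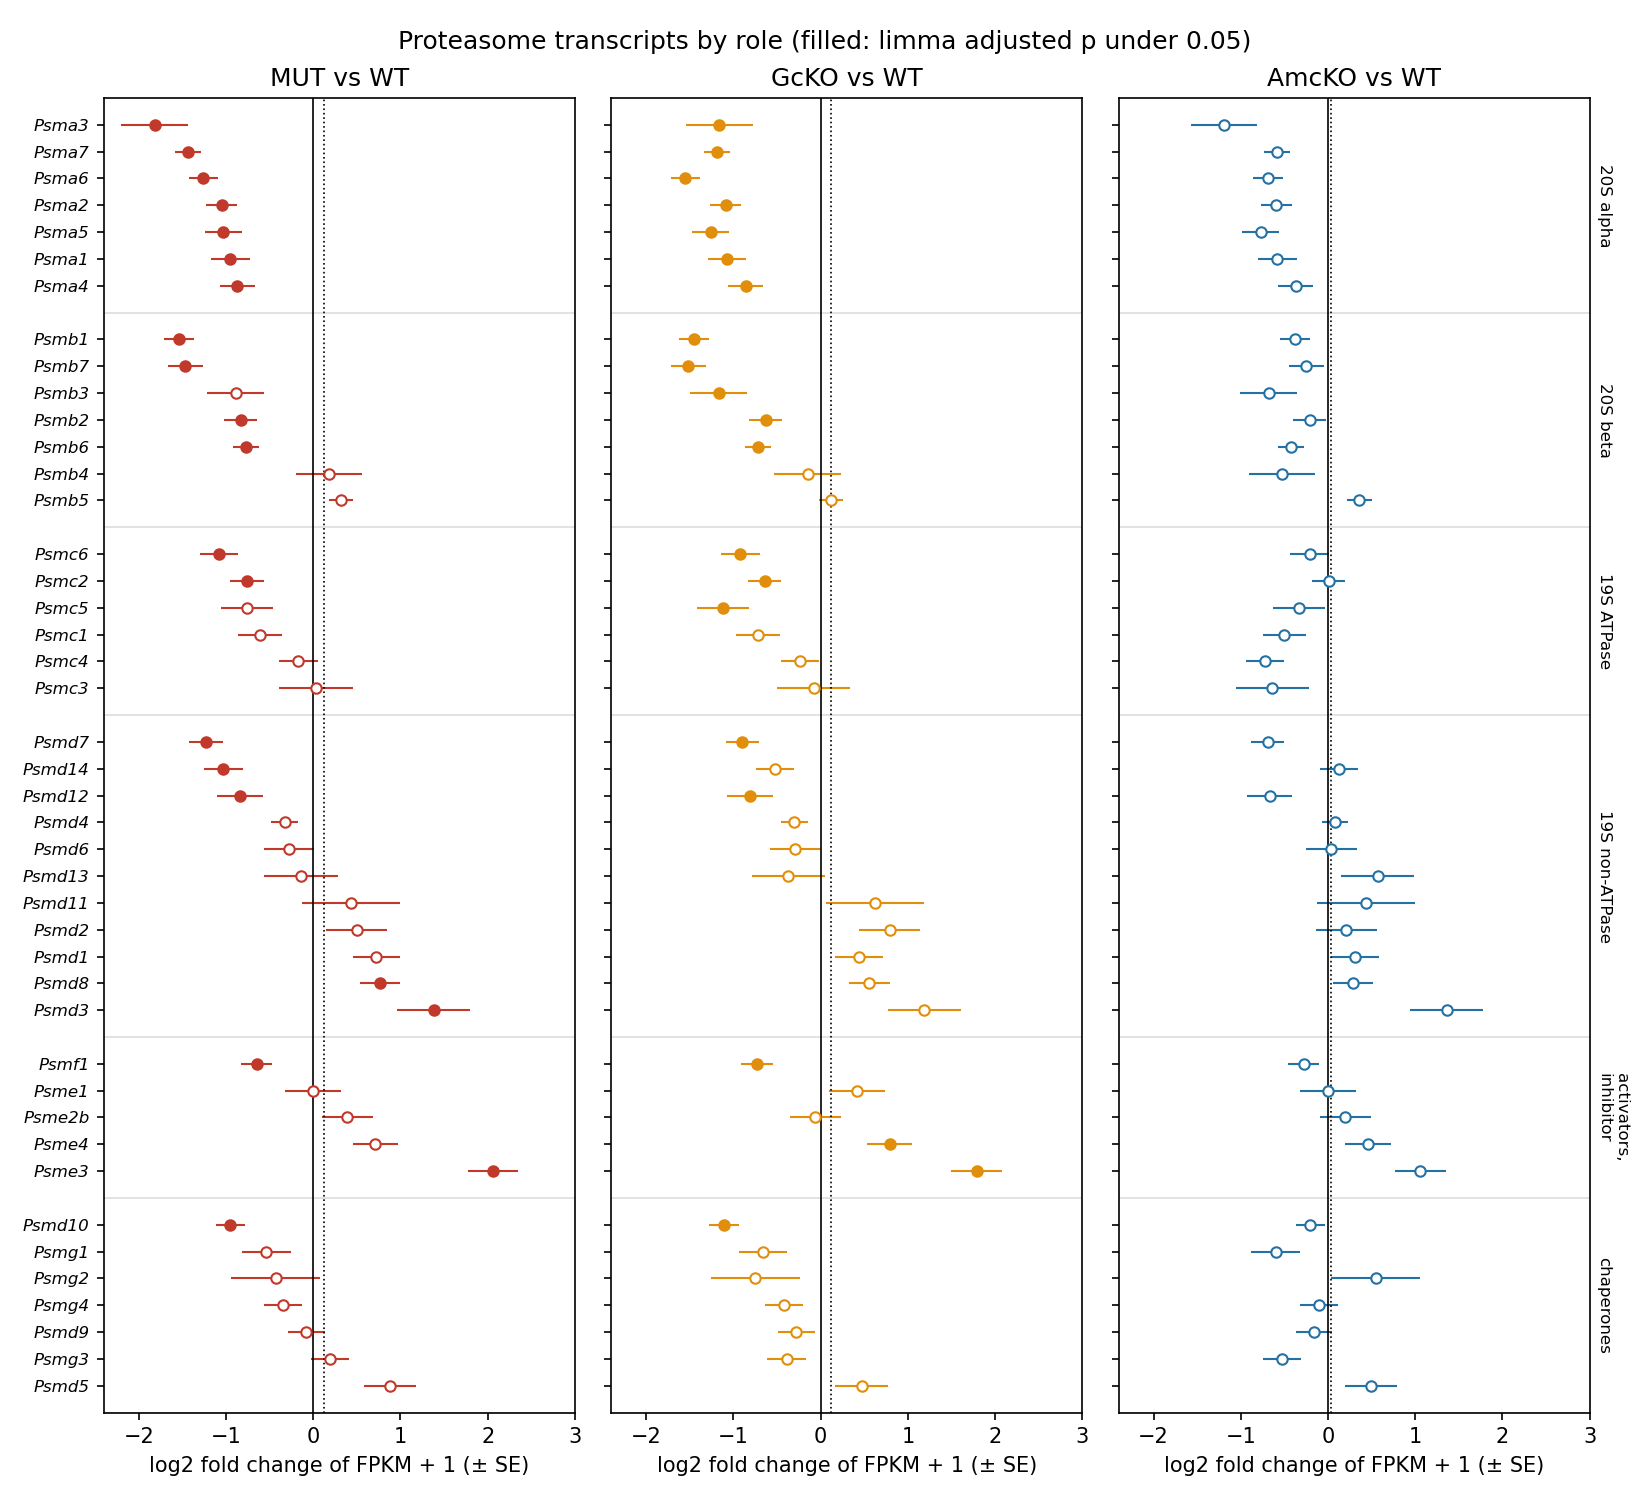
Log2 fold change of FPKM + 1, with its SE, of the tested members of each role in MUT, GcKO and AmcKO against WT, 3 libraries a group. Filled points passed the limma test, the dotted line is the median of all tested genes (0.12, 0.12 and 0.03, or 0.70, 0.73 and 0.21 with equal FPKM sums), and the 7 alpha subunits lie left of 0 in all panels, of which 5 in MUT were below 0 with equal sums.

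As a share of the library, which multiplying a library by a factor does not change, the members together did not become scarcer in the mutants. Proteasome transcripts held 0.437, 0.456 and 0.482% of the FPKM sum in WT, 0.484, 0.471 and 0.505% in MUT, 0.509, 0.486 and 0.486% in GcKO, and 0.423, 0.458 and 0.418% in AmcKO. The means were 0.458 ± 0.0227% in WT, 0.487 ± 0.0171% in MUT, 0.494 ± 0.0135% in GcKO and 0.433 ± 0.0222% in AmcKO (SD, n = 3). MUT and WT shares overlapped, while each GcKO library was above each WT library by a small margin. Psma2 holds the largest part of any member, and without it the means were 0.364, 0.397, 0.403 and 0.356%. Each MUT library (0.39, 0.385 and 0.415%) was then above each WT library (0.351, 0.362 and 0.379%). No test was made on a sum over members.

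By role, the shares moved differently. Alpha subunits held 0.190, 0.206 and 0.214% of the WT libraries and 0.196, 0.178 and 0.197% of the MUT libraries, with overlapping values. Non-ATPase subunits held 0.0214, 0.0254 and 0.0260% in WT, 0.0368, 0.0367 and 0.0383% in MUT and 0.0446, 0.0421 and 0.0333% in GcKO, all above WT. Activators and the inhibitor held 0.0110, 0.0103 and 0.0113% in WT, 0.0196, 0.0210 and 0.0230% in MUT and 0.0225, 0.0190 and 0.0175% in GcKO, again without overlap with WT. The share of the chaperones was likewise higher in MUT (0.0516, 0.0628 and 0.0654%) and GcKO (0.0552, 0.0597 and 0.0454%) than in WT (0.0365, 0.0407 and 0.0392%). ATPases held 0.0280, 0.0273 and 0.0279% in WT, 0.0335, 0.0320 and 0.0315% in MUT and 0.0338, 0.0316 and 0.0352% in GcKO, so their share was higher although some of them were called lower. Beta subunits overlapped, with 0.148, 0.142 and 0.160% in WT, 0.142, 0.136 and 0.144% in MUT and 0.158, 0.147 and 0.149% in GcKO. In AmcKO, alpha subunits held 0.158, 0.190 and 0.154%, with the lowest mean of the 4 groups (0.167%, against 0.204% in WT), and the non-ATPase share (0.0268, 0.0252 and 0.0311%) overlapped WT. The AmcKO shares of the activators and inhibitor (0.0136, 0.0122 and 0.0127%) and of the chaperones (0.0444, 0.0421 and 0.0429%) lay above those of WT.

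**Figure D2:**
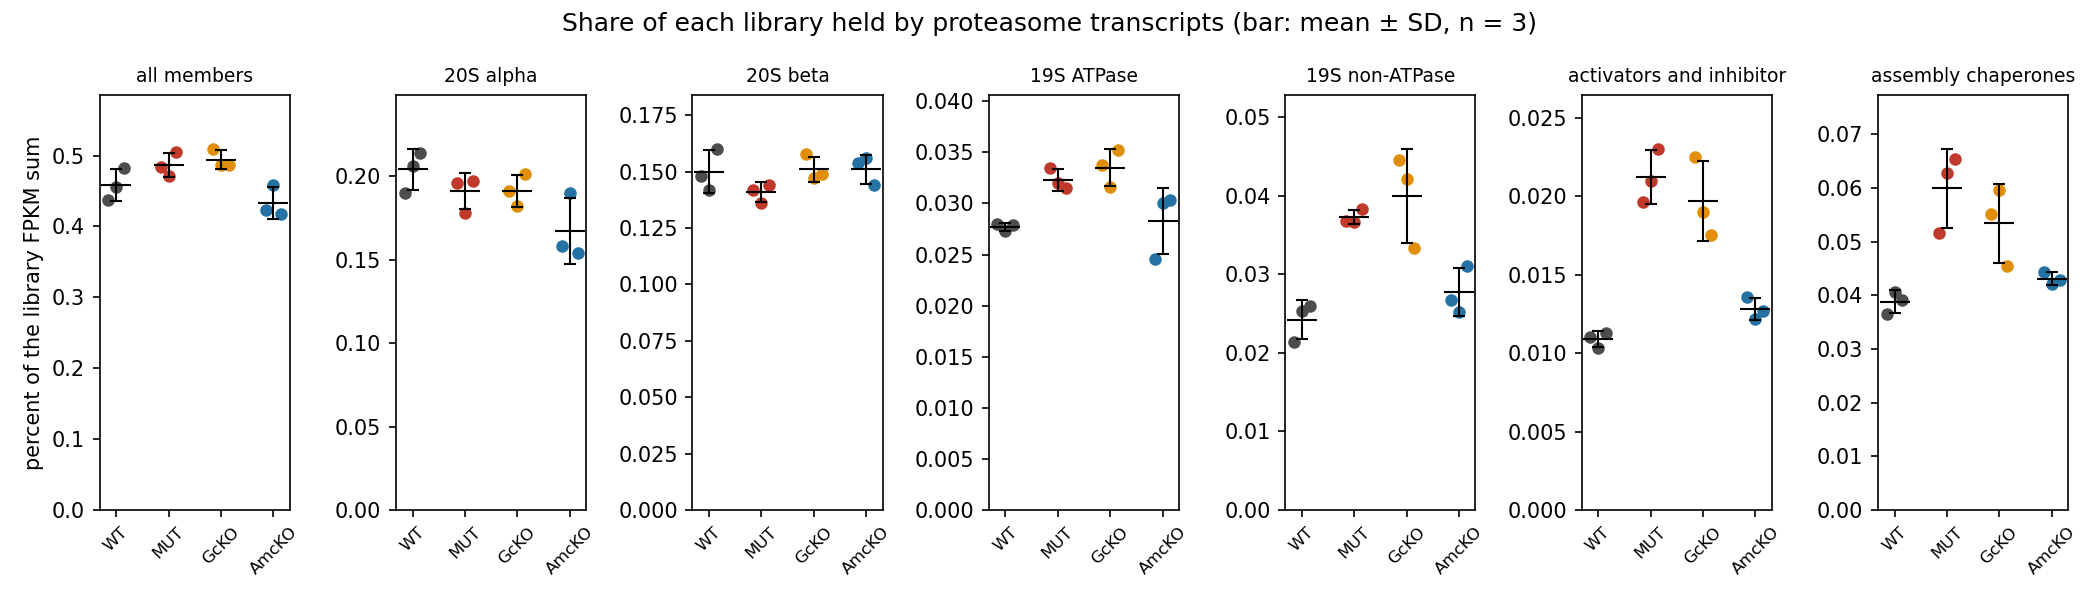
Percent of the FPKM sum of each library held by the 50 members and by the members of each role, with points for libraries and bars for mean ± SD (n = 3). The share of all members was 0.458% in WT and 0.487% in MUT on average, and that of the activators and inhibitor 0.0109% and 0.0212%.

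Among the alpha subunits, which form the outer rings and the gate of the core, the calls covered every tested member. WT libraries held 1054, 1089 and 1262 FPKM of Psma2, MUT libraries 578, 525 and 533, GcKO libraries 443, 526 and 646 and AmcKO libraries 698, 963 and 632. Psma2, the most abundant proteasome transcript, was lower in each library of the other groups than in any WT library, and it fell by 1.05 ± 0.18 in MUT (adjusted p = 0.00117) and 1.09 ± 0.18 in GcKO (adjusted p = 0.000922). With equal sums its fold changes were -0.06 and -0.05, neither of them called. Psma7, an alpha subunit whose place Psma8 takes in male germ cells, had 352, 359.6 and 357 FPKM in WT, 131, 120.2 and 143 in MUT, 129.9, 166 and 174 in GcKO and 221, 279 and 219.9 in AmcKO oocytes. Its AmcKO values lay between WT and the mutants with no overlap, and it fell by 1.44 ± 0.15 in MUT (adjusted p = 0.000106) and by 1.19 ± 0.15 in GcKO (adjusted p = 0.000212), where equal sums lost the call (-0.16, adjusted p = 0.282). For Psma6, another ring subunit, the values were 222, 234 and 241 FPKM in WT, 98.8, 87.4 and 103 in MUT, 64.9, 82.7 and 89.7 in GcKO and 150.4, 172 and 115 in AmcKO oocytes. The same order held, and Psma6 fell by 1.26 ± 0.17 in MUT (adjusted p = 0.000301) and by 1.55 ± 0.17 in GcKO (adjusted p = 0.000116). Its MUT call was lost with equal sums (-0.27, adjusted p = 0.108).

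The widest and the narrowest fall among the alpha subunits in MUT were those of Psma3 and Psma4. WT libraries held 12.1, 10.7 and 18.3 FPKM of Psma3, MUT libraries 2.49, 5.23 and 2.1, GcKO libraries 5.54, 3.64 and 7.8 and AmcKO libraries 6.06, 8.21 and 2.82. Psma3 was lower in every library outside WT, at an estimated 9, 7 and 14 fragments in WT and 4, 9 and 3 in MUT, and it fell by 1.82 ± 0.38 in MUT (adjusted p = 0.00449) and 1.16 ± 0.38 in GcKO (adjusted p = 0.0476). The GcKO call was lost with equal sums (0.636) and without WT replicate 4 (0.0964), WT replicate 5 (0.068), WT replicate 6 (0.161), GcKO replicate 1 (0.129) or GcKO replicate 2 (0.176), each value being the adjusted p that results. Psma4 measured 204, 204 and 226 FPKM in WT, 130.2, 104 and 114 in MUT, 93.3, 113 and 148 in GcKO and 149, 215 and 137 in AmcKO oocytes. AmcKO and WT overlapped here, and Psma4 fell by 0.87 ± 0.20 in MUT (adjusted p = 0.00762) and 0.86 ± 0.20 in GcKO (adjusted p = 0.00783), with the sign turned by equal sums (0.13 and 0.17).

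The 3 proteolytic beta subunits did not move alike. WT libraries held 346, 376 and 369 FPKM of Psmb7, MUT libraries 129, 149 and 115, GcKO libraries 102, 124 and 159 and AmcKO libraries 274, 403 and 256. Psmb7, which carries the trypsin-like activity, was low in MUT and GcKO, and WT and AmcKO overlapped. It fell by 1.47 ± 0.20 in MUT (adjusted p = 0.000254) and by 1.52 ± 0.20 in GcKO (adjusted p = 0.000226), and with equal sums it was still called lower (-0.48 in both). For Psmb6, the caspase-like subunit, values were 187, 142 and 168 FPKM in WT, 91.1, 102 and 94.3 in MUT, 92.6, 106 and 101 in GcKO and 111, 129.6 and 128 in AmcKO oocytes. All WT values were the highest and AmcKO lay between, and Psmb6 fell by 0.77 ± 0.15 in MUT (adjusted p = 0.00236) and 0.72 ± 0.15 in GcKO (adjusted p = 0.00378), with the sign turned by equal sums (0.21 and 0.31). Psmb5, the chymotrypsin-like subunit that proteasome inhibitors such as bortezomib bind, had 59.6, 64.5 and 52.4 FPKM in WT, 77, 69.5 and 73.6 in MUT, 59.7, 69.5 and 62.2 in GcKO and 75.8, 73.9 and 77.1 in AmcKO oocytes. MUT and AmcKO lay above WT, GcKO overlapped WT, and no call was made, at 0.32 ± 0.14 in MUT (adjusted p = 0.136) and 0.12 ± 0.14 in GcKO (adjusted p = 0.598), while both were called higher with equal sums (1.30 and 1.14), quantile normalization and the abundance correction. The ratio of Psmb5 to Psmb7 within a library, which such a factor does not change either, was 0.173, 0.172 and 0.142 in WT, 0.595, 0.466 and 0.641 in MUT, 0.585, 0.562 and 0.391 in GcKO and 0.277, 0.184 and 0.301 in AmcKO. It was higher in each library outside WT than in any WT library, a description with no test.

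Among the beta subunits without a proteolytic site, Psmb1 fell most in MUT. WT libraries held 590.5, 617 and 716 FPKM of Psmb1, MUT libraries 221, 215 and 223, GcKO libraries 196, 237 and 270.0 and AmcKO libraries 479.8, 601 and 414. Every MUT and GcKO value was below every WT and AmcKO value, and Psmb1 fell by 1.54 ± 0.17 in MUT (adjusted p = 0.000106) and 1.45 ± 0.17 in GcKO (adjusted p = 0.000123). With equal sums it was called lower as well (-0.54 and -0.42). Psmb2 had the highest mean level of the beta subunits over all 12 libraries, though Psmb1 was above it on average in WT and AmcKO, with 564, 413 and 628 FPKM in WT, 322, 263 and 308 in MUT, 286, 341 and 406 in GcKO and 520.3, 488 and 371 in AmcKO oocytes. The MUT and GcKO values were below those of WT, and Psmb2 fell by 0.83 ± 0.19 in MUT (adjusted p = 0.00833) and 0.63 ± 0.19 in GcKO (adjusted p = 0.0345), but the sign turned with equal sums (0.17 and 0.41, the latter called higher, adjusted p = 0.0327), under quantile normalization (0.02 and 0.30) and, in GcKO, after loess correction for abundance (0.23). The GcKO call was lost without WT replicate 4 (0.109), WT replicate 6 (0.13), GcKO replicate 1 (0.14) or GcKO replicate 2 (0.0894), the adjusted p being in parentheses.

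The inducible and tissue-restricted core subunits were near or at 0. Psmb8 and Psmb10, which replace constitutive subunits in the immunoproteasome, were at 0.75 and 0.72 FPKM in MUT replicate 1 and at 0 in the other 11 libraries. Psmb9, the remaining immunoproteasome subunit, and Psma8, the alpha subunit of male germ cells, were at 0 in all 12. Psmb11, the subunit of the thymic proteasome, had 0.39, 0 and 0.38 FPKM in WT, 0.36, 0.67 and 0.2 in MUT, 0.32, 0.15 and 0.5 in GcKO and 0 in each library in AmcKO oocytes. The Psmb11 values are an estimated 4 fragments or fewer per library, so no difference was detectable at this depth. On chr14 of GRCm38, Psmb11 (chr14:54621433-54629556) is the neighbour of Psmb5 (chr14:54614119-54618022), which was above 50 FPKM throughout.

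**Figure D3:**
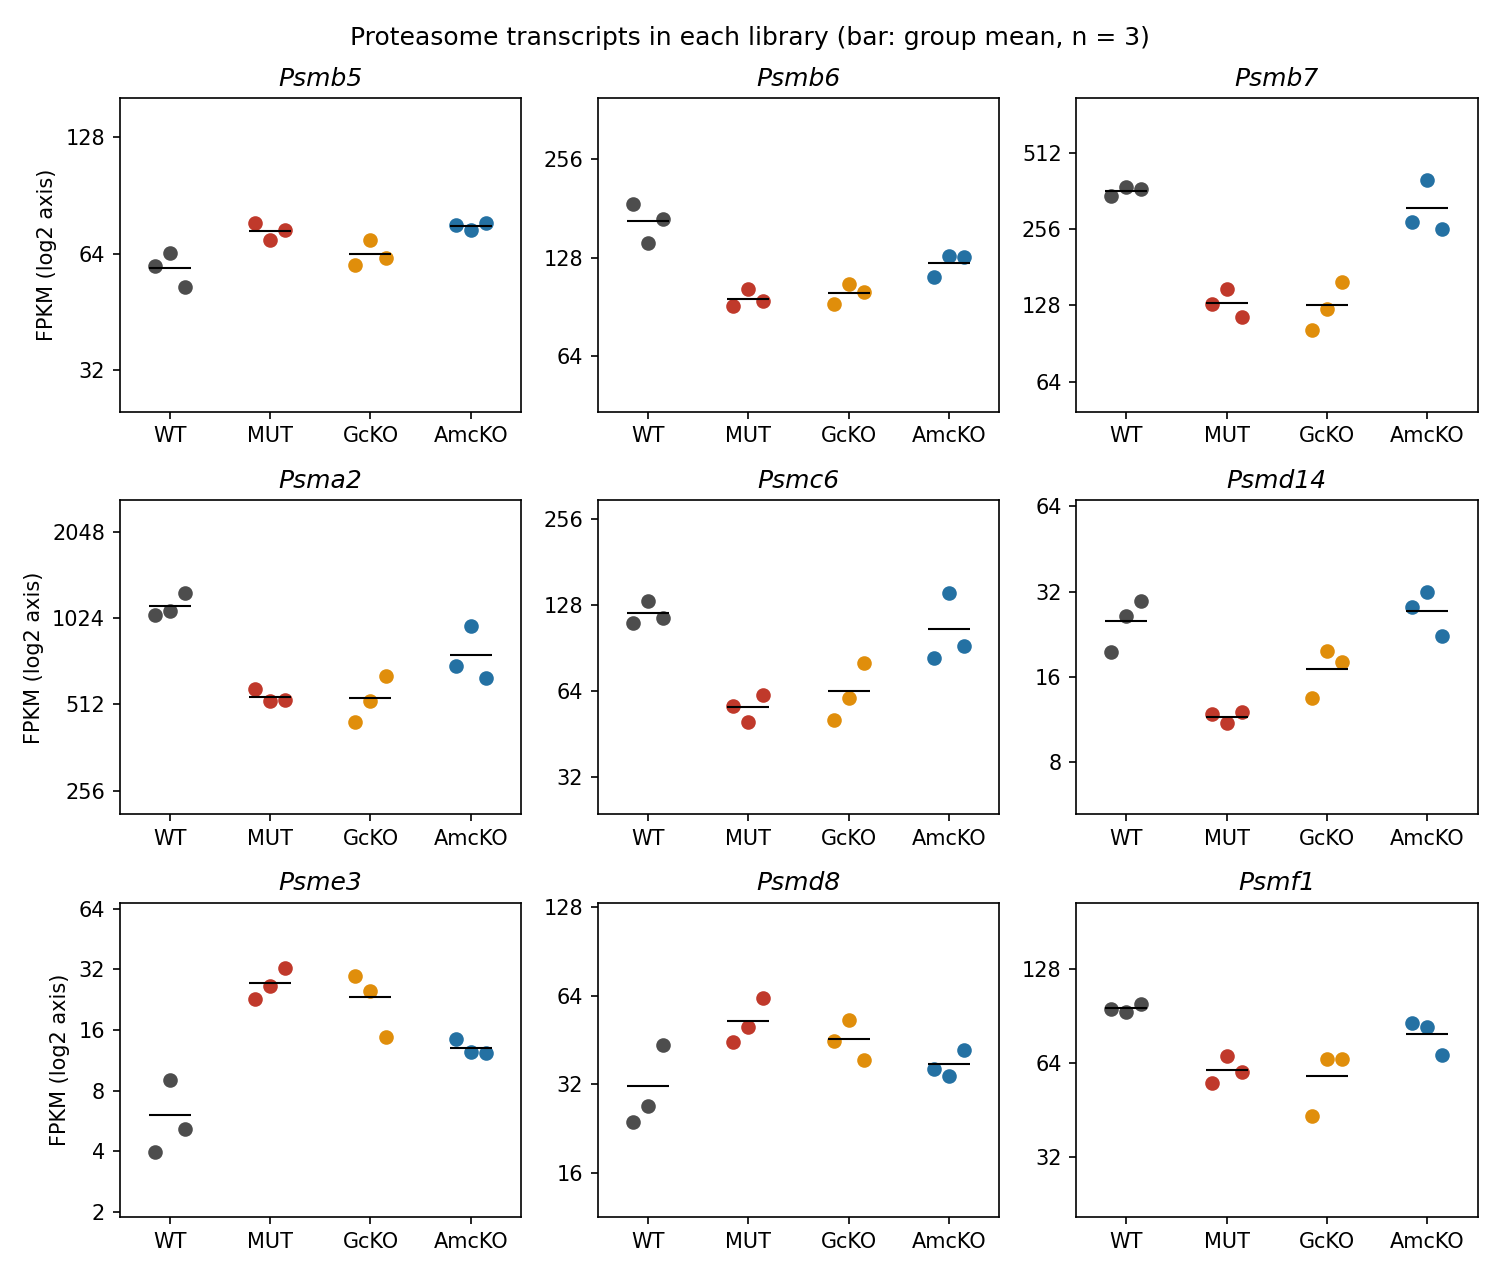
FPKM in each library (points, log2 axis) and group mean (bars, n = 3) of 9 members. Psmb7 lies at 102 to 159 FPKM in MUT and GcKO and at 256 to 403 in WT and AmcKO, Psmb5 at 52.4 to 77.1 throughout, and Psme3 rises from 3.98 to 9.01 in WT to 14.8 to 32.5 in MUT and GcKO, with the sign of Psmb6 and Psmf1 turned by equal sums.

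The ATPase subunits form the ring that unfolds substrates and threads them into the core. WT libraries held 111, 133 and 116 FPKM of Psmc6, MUT libraries 56.9, 49.9 and 62, GcKO libraries 50.6, 60.9 and 80.7 and AmcKO libraries 83.7, 142 and 92.2. Psmc6, the most abundant of them, was lower in every MUT and GcKO library than in any WT or AmcKO library, and it fell by 1.08 ± 0.22 in MUT (adjusted p = 0.00321) and 0.92 ± 0.22 in GcKO (adjusted p = 0.00861), with equal sums giving -0.09 and 0.11, the latter with its sign turned. Psmc2 measured 80.1, 58.1 and 77.6 FPKM in WT, 45.9, 43.1 and 36.7 in MUT, 41.8, 43.9 and 51.4 in GcKO and 58.5, 82.1 and 76.3 in AmcKO oocytes. Again MUT and GcKO lay below the other groups, and Psmc2 fell by 0.76 ± 0.19 in MUT (adjusted p = 0.0112) and 0.64 ± 0.19 in GcKO (adjusted p = 0.027), with the sign turned by equal sums (0.22 and 0.38). Its MUT call was lost without MUT replicate 3 (0.0516) and its GcKO call without WT replicate 4 (0.0817), WT replicate 6 (0.0776), GcKO replicate 1 (0.089) or GcKO replicate 2 (0.0737), with the adjusted p in parentheses. Psmc3 was the ATPase with the highest fold change in MUT, with 5.69, 6.43 and 2.2 FPKM in WT, 4.2, 5.37 and 4.12 in MUT, 8.41, 2.63 and 2.92 in GcKO and 2.92, 1.38 and 3.55 in AmcKO oocytes. MUT and GcKO each overlapped WT at an estimated 2 to 18 fragments, and the values of 0.03 ± 0.42 for MUT and -0.08 ± 0.42 for GcKO (adjusted p = 0.989 and 0.931) have no firm sign, as the alternatives turned both.

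Among the non-ATPase subunits of the cap, falls and rises stood side by side. Psmd7, the scaffold that pairs with the deubiquitinase, had 63.3, 76.8 and 57.8 FPKM in WT, 33, 25.6 and 24.3 in MUT, 30.3, 36.5 and 37.6 in GcKO and 40.6, 47.6 and 33.5 in AmcKO oocytes. WT held the 3 highest values, and Psmd7 fell by 1.23 ± 0.19 in MUT (adjusted p = 0.000677) and 0.90 ± 0.19 in GcKO (adjusted p = 0.00494), with equal sums giving -0.25, no longer called (adjusted p = 0.271), and 0.12, with its sign turned. Psmd14, the deubiquitinase that clips the ubiquitin chain off a substrate, had 19.5, 26.2 and 29.5 FPKM in WT, 11.8, 11 and 12 in MUT, 13.5, 19.8 and 18 in GcKO and 28.2, 31.9 and 22.2 in AmcKO oocytes. MUT values were the lowest and GcKO overlapped WT, and Psmd14 fell by 1.03 ± 0.22 in MUT (adjusted p = 0.00449) and gave -0.52 ± 0.22 in GcKO (adjusted p = 0.105). With equal sums the MUT call was lost (-0.09, adjusted p = 0.753) and the GcKO sign turned (0.46). For Psmd4, a ubiquitin receptor and the most abundant subunit of the group, the values were 88.9, 102 and 109.9 FPKM in WT, 76, 84.8 and 77.2 in MUT, 73, 84.9 and 85.3 in GcKO and 103, 99.5 and 116 in AmcKO oocytes. MUT and GcKO values were lower than WT values by a narrow margin without a call, at -0.33 ± 0.15 in MUT (adjusted p = 0.127) and -0.30 ± 0.15 in GcKO (adjusted p = 0.164), and equal sums (0.66 and 0.73, both called higher), quantile normalization and the abundance correction turned the sign.

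Psmd8 and Psmd3, structural subunits of the lid, were called higher in MUT. WT libraries held 23.8, 26.9 and 43.6 FPKM of Psmd8, MUT libraries 44.5, 50.1 and 63, GcKO libraries 44.8, 53.1 and 38.6 and AmcKO libraries 36.2, 34.3 and 41.8. MUT values of Psmd8 were above WT values, by a narrow margin from WT replicate 6, and GcKO overlapped WT. Psmd8 rose by 0.76 ± 0.23 in MUT (adjusted p = 0.0305), a call lost without WT replicate 4 (0.114), WT replicate 5 (0.0975), MUT replicate 2 (0.0771) or MUT replicate 3 (0.129), with the adjusted p in parentheses, and GcKO gave 0.56 ± 0.23 (adjusted p = 0.101), called higher under equal sums, quantile normalization and the abundance correction. Psmd3 is scarce, with 1.66, 0 and 0 FPKM in WT, 2.29, 3.54 and 2.14 in MUT, 3.74, 2.23 and 1.06 in GcKO and 3.18, 2 and 2.58 in AmcKO oocytes. The estimated fragments were 2, 0 and 0 in WT, 6, 10 and 5 in MUT and 6, 4 and 6 in AmcKO. AmcKO values overlapped those of MUT. In AmcKO against WT, Psmd3 gave 1.36, the highest value of any tested member there, without a call. It rose by 1.38 ± 0.42 in MUT (adjusted p = 0.0325), a call lost without WT replicate 5 (0.113), WT replicate 6 (0.116), MUT replicate 1 (0.0751), MUT replicate 2 (0.121) or MUT replicate 3 (0.0759), under quantile normalization (0.0848) and the abundance correction (0.117), and GcKO gave 1.19 ± 0.42 (adjusted p = 0.0616). GcKO against MUT, the test of the difference, gave -0.20 ± 0.23 for Psmd8 and -0.19 ± 0.42 for Psmd3 (adjusted p = 0.96 and 0.992). Psmd13 passed the filter with values above 0 in 4 libraries and an estimated 3 fragments at most.

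Among the activators, Psme3 was called higher in both comparisons and Psme4 in GcKO. WT libraries held 3.98, 9.01 and 5.15 FPKM of Psme3, MUT libraries 22.9, 26.6 and 32.5, GcKO libraries 29.7, 25 and 14.8 and AmcKO libraries 14.4, 12.4 and 12.3. Psme3 encodes the nuclear activator that opens the core without ubiquitin or ATP, and its WT values were the lowest and its AmcKO values intermediate, with no overlap between those groups and the mutants. It rose by 2.06 ± 0.29 in MUT (adjusted p = 0.000343) and 1.79 ± 0.29 in GcKO (adjusted p = 0.000864), the highest fold change of any tested member in both, and with equal sums by 2.93 and 2.70. Psme4, the activator that acts on acetylated histones in germ cells, had 5.54, 5.13 and 5.88 FPKM in WT, 9.49, 9.28 and 10.2 in MUT, 16.2, 7.9 and 8.34 in GcKO and 7.37, 7.7 and 8.93 in AmcKO oocytes. WT held the 3 lowest values, and Psme4 rose by 0.79 ± 0.26 in GcKO (adjusted p = 0.0445) and gave 0.71 ± 0.26 in MUT (adjusted p = 0.0674). That call was lost without WT replicate 4 (0.0783), WT replicate 5 (0.0937), WT replicate 6 (0.0672) or GcKO replicate 1 (0.154), the adjusted p being in parentheses. Quantile normalization (0.66, adjusted p = 0.13) and the abundance correction (0.58, adjusted p = 0.154) also lost it. GcKO against MUT gave 0.08 ± 0.26 for Psme4 (adjusted p = 1).

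Psmf1, an inhibitor of the core in vitro, was the most abundant of the group, with 95.2, 92.7 and 98.9 FPKM in WT, 55.1, 67.5 and 59.8 in MUT, 43.1, 65.8 and 65.7 in GcKO and 85.5, 83.5 and 67.6 in AmcKO oocytes. Each library outside WT was below each WT library, and Psmf1 fell by 0.65 ± 0.18 in MUT (adjusted p = 0.0227) and 0.73 ± 0.18 in GcKO (adjusted p = 0.0121), with the sign turned by equal sums (0.34 and 0.29). The MUT call was lost without WT replicate 4 (0.052), WT replicate 6 (0.0605), MUT replicate 1 (0.0801) or MUT replicate 3 (0.0676), with the adjusted p in parentheses. Of the interferon-induced activator, Psme1 was above 0 only in GcKO replicate 3 (1.41 FPKM) and Psme2 in no library. Psme2b, a close copy of Psme2, was at 13.4 to 33.1 FPKM, and since both copies share sequence, which of them the fragments came from is uncertain.

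Assembly chaperones put the rings together and leave the finished particle. Psmd10, or gankyrin, which holds an ATPase during assembly of the cap, had 170.4, 159 and 204 FPKM in WT, 90.9, 89.7 and 92 in MUT, 71.1, 88 and 86.8 in GcKO and 144, 194 and 130.1 in AmcKO oocytes. MUT and GcKO lay below both other groups, and Psmd10 fell by 0.95 ± 0.17 in MUT (adjusted p = 0.00171) and 1.11 ± 0.17 in GcKO (adjusted p = 0.000637), where equal sums gave 0.04, with its sign turned, and -0.08. Psmg4, which helps to build the alpha ring, had the highest mean of the chaperones over all 12 libraries, though Psmd10 was above it on average in WT and AmcKO, with 141, 209 and 147 FPKM in WT, 97.8, 144 and 147 in MUT, 104, 151 and 114 in GcKO and 160.2, 181 and 122 in AmcKO oocytes. Groups overlapped, and the uncalled values of -0.35 ± 0.22 for MUT and -0.42 ± 0.22 for GcKO (adjusted p = 0.286 and 0.208) turned their sign with equal sums (0.64 and 0.61, both called higher), quantile normalization and the abundance correction. Psmd5, a chaperone of the ATPase ring, had 35.2, 18.9 and 24.7 FPKM in WT, 40.9, 45.5 and 58.1 in MUT, 29.2, 42.9 and 36 in GcKO and 48.9, 21.8 and 44.2 in AmcKO oocytes. MUT values were above WT values, and the fold change of 0.88 ± 0.30 missed the threshold (adjusted p = 0.0503) but was called with equal sums, quantile normalization and the abundance correction, with 0.47 ± 0.30 in GcKO (adjusted p = 0.291).

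Deletion in granulosa cells, the comparison that asks whether the somatic cells around the oocyte matter, was AmcKO against WT. Limma called 0 of the 44 members, in a comparison where it called 24 of all 11233 genes (0.214%), so that few calls could be looked for among 44. The 24 became 84 without AmcKO replicate 5 and 14 without AmcKO replicate 4. An unadjusted p under 0.05 was reached by 16 members (36.4%, against 15.6% of all tested genes). The median fold change of the 44 members was -0.23, against 0.03 over all tested genes. With equal sums the members' median turned to 0.03. The difference from all genes was -0.26 as reported, -0.18 with equal sums, -0.04 under quantile normalization and -0.08 under the abundance correction. All 7 alpha subunits had negative values from -1.19 to -0.37, also with equal sums, where their median was -0.29 and that of all genes 0.21. Psma6 gave -0.69 ± 0.17 (adjusted p = 0.115), Psma7 -0.58 ± 0.15 (0.132) and Psme3 1.06 ± 0.29 (0.138). AmcKO FPKM sums were also between those of WT and the mutants, and their part in these values was not tested.

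Point mutation and oocyte deletion were compared directly. In GcKO against MUT, limma called 0 of the 44 members, where 0.205% of all tested genes were called, and 2 had an unadjusted p under 0.05 (4.55%, against 6.6% of all tested genes). The median was -0.09, against 0.00 over all tested genes, and the difference between these medians was 0.04 without GcKO replicate 1, -0.18 without GcKO replicate 2 and -0.14 without MUT replicate 1. Psmd14 gave 0.51 ± 0.22 (adjusted p = 0.688), with each GcKO value above each MUT value. The other of the 2 was Psmg3, a chaperone of the alpha ring named after its value was seen, at -0.58 ± 0.22 (adjusted p = 0.55). A p above the threshold does not show that the groups had equal levels.

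MUT against AmcKO compares the mutation of the oocyte and all other cells with the granulosa cell deletion. Of the 44 members, 7 were called lower in MUT, where 5.07% of all tested genes were, and 0 higher, where 1.42% were, while 17 had an unadjusted p under 0.05 in either direction (38.6%, against 20.6% of all tested genes). The median was -0.26, against 0.05 over all tested genes, and it was -0.13 without AmcKO replicate 5, against 0.05. Equal sums moved the members' median to 0.38 and the all-gene median to 0.52, and gave 2 members lower (4.55%, against 1.47% of all genes) and 11 higher (25.0%, against 21.4%). The difference between the medians was -0.31 as reported, -0.14 with equal sums, and -0.07 under quantile normalization and under the abundance correction. Psmb7 fell by 1.22 ± 0.20 (adjusted p = 0.00249), Psmb1 by 1.16 ± 0.17 (0.00128) and Psmd14 by 1.16 ± 0.22 (0.0066). Psma7 fell by 0.86 ± 0.15 (adjusted p = 0.00515). These 4 calls held without any 1 library, but with equal sums those of Psma7 (-0.16, adjusted p = 0.318) and Psmd14 (-0.50, adjusted p = 0.0919) were lost. Those of Psmb7 and Psmb1 were made under each scaling tried, and the calls of Psmc6, Psmc2 and Psmd10 were lost with equal sums, quantile normalization and the abundance correction. Psmc6 fell by 0.87 ± 0.22 (adjusted p = 0.0272), a call lost without MUT replicate 1 (0.0915), MUT replicate 2 (0.126), MUT replicate 3 (0.078) or AmcKO replicate 5 (0.11), the adjusted p being in parentheses. Psmc2 fell by 0.76 ± 0.19 (adjusted p = 0.0252), lost without MUT replicate 1 (0.0564), MUT replicate 2 (0.075), MUT replicate 3 (0.105), AmcKO replicate 5 (0.0975) or AmcKO replicate 6 (0.0682). Psmd10 fell by 0.75 ± 0.17 (adjusted p = 0.018), lost without MUT replicate 1 (0.0657), MUT replicate 2 (0.0719), MUT replicate 3 (0.0683) or AmcKO replicate 5 (0.0619). The count of 7 was 4 without MUT replicate 1, 2 or 3 or AmcKO replicate 5.

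GcKO against AmcKO compares deletion in the oocyte with deletion in the granulosa cell. Limma called 5 of the 44 members lower, where 4.79% of all tested genes were, and 0 higher, where 0.668% were, and 20 had an unadjusted p under 0.05 in either direction (45.5%, against 19.3% of all tested genes). The median was -0.28, against 0.04. With equal sums the members' median turned to 0.43, against 0.54 over all genes, and 2 members were called lower (4.55%, against 1.14% of all genes) and 8 higher (18.2%, against 22.1%). The difference between the medians was -0.32 as reported, -0.11 with equal sums, -0.06 under quantile normalization and -0.04 under the abundance correction. Psmb7 fell by 1.26 ± 0.20 (adjusted p = 0.00279), and so did Psmb1 by 1.08 ± 0.17 (0.00242) and Psmd10 by 0.91 ± 0.17 (0.00799). The calls of Psmb7 and Psmb1 were made under each scaling tried, that of Psmd10 was lost with equal sums (-0.17) and the abundance correction (-0.51, adjusted p = 0.0732), and those of Psma6 and Psma7 were lost with equal sums, quantile normalization and the abundance correction. Psma6 fell by 0.87 ± 0.17 (adjusted p = 0.0108), a call lost without AmcKO replicate 4 (0.0565) or AmcKO replicate 5 (0.0503), the adjusted p being in parentheses. Psma7 fell by 0.62 ± 0.15 (adjusted p = 0.0331), with its sign turned by equal sums (0.12), and its call was lost without GcKO replicate 1 (0.0993), GcKO replicate 2 (0.0628), AmcKO replicate 4 (0.0643) or AmcKO replicate 5 (0.0988). The count of 5 was 3 without AmcKO replicate 4 or 5, and with only these 2 groups in the fit limma called 0 of all 11233 genes. The comparisons with AmcKO share the same 3 libraries.

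Of 38 genes that work with the proteasome under other symbols, 33 were in the table and 31 were tested. Among 4 tested subunits and chaperones with other symbols, 2 were called lower in MUT and 1 in GcKO (against 11.3 and 11.4% of all tested genes), and none higher. Akirin2, which carries assembled proteasomes into the nucleus, had 343, 346 and 389 FPKM in WT, 181, 168 and 222 in MUT, 196, 186 and 215 in GcKO and 248, 328 and 214 in AmcKO oocytes. It fell by 0.92 ± 0.17 in MUT (adjusted p = 0.00203) and 0.85 ± 0.17 in GcKO (adjusted p = 0.00335), with the sign turned by equal sums (0.07 and 0.19) and both calls lost under quantile normalization and the abundance correction. Pomp, the maturation factor of the core, had 277, 245 and 342 FPKM in WT, 174, 219 and 191 in MUT, 177, 203 and 248 in GcKO and 244, 325 and 243 in AmcKO oocytes. MUT lay below WT and GcKO overlapped it, and Pomp fell by 0.56 ± 0.18 in MUT (adjusted p = 0.0445), with -0.46 ± 0.18 in GcKO (adjusted p = 0.0935), and the sign turned with equal sums (0.44 and 0.58, both called higher, adjusted p = 0.018 and 0.00382), quantile normalization and the abundance correction. Its call was lost without WT replicate 4 (0.0862), WT replicate 6 (0.152), MUT replicate 1 (0.146), MUT replicate 2 (0.0607) or MUT replicate 3 (0.119), with the adjusted p in parentheses. The 7 tested deubiquitinases, ligases and adaptors that bind the proteasome gave 0 calls in either comparison by limma, with 2 at an unadjusted p under 0.05 in MUT and 1 in GcKO (28.6 and 14.3%, against 34.1 and 33.7% of all tested genes).

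The shuttle receptors, which carry ubiquitinated proteins to the cap, were called higher in 3 of 6 tested cases in MUT and in GcKO, where 9.46 and 8.71% of all tested genes were, with medians of 0.78 and 0.79, against 0.12 over all tested genes in both. Rad23b had 4.41, 5.49 and 8.57 FPKM in WT, 14.2, 12 and 16.1 in MUT, 19, 15.7 and 11 in GcKO and 9.84, 10.3 and 8.41 in AmcKO oocytes. Its mutant values lay above WT, and it rose by 1.11 ± 0.26 in MUT (adjusted p = 0.00897) and 1.19 ± 0.26 in GcKO (adjusted p = 0.00594). Ubqln1 had 19.7, 21.7 and 27.8 FPKM in WT, 41.6, 44.2 and 35.9 in MUT, 48.9, 43.5 and 34.7 in GcKO and 31.7, 17.5 and 28.2 in AmcKO oocytes. Without overlap with WT it rose by 0.80 ± 0.23 in MUT (adjusted p = 0.0254), a call lost without WT replicate 4 (0.0873), WT replicate 5 (0.0706), MUT replicate 1 (0.0772), MUT replicate 2 (0.092) or MUT replicate 3 (0.0521), and 0.85 ± 0.23 in GcKO (adjusted p = 0.0183), lost without WT replicate 4 (0.07), WT replicate 5 (0.0569), GcKO replicate 1 (0.0841) or GcKO replicate 2 (0.061). For Ubqln2, the values were 1.54, 3.48 and 4.97 FPKM in WT, 11.8, 6.53 and 13.7 in MUT, 15.3, 7.66 and 12.1 in GcKO and 6.2, 7.7 and 6.07 in AmcKO oocytes. It was above WT in each mutant library and rose by 1.46 ± 0.36 in MUT (adjusted p = 0.0106), lost without WT replicate 4 (0.05), MUT replicate 1 (0.0522) or MUT replicate 3 (0.0682), and by 1.59 ± 0.36 in GcKO (adjusted p = 0.00642). Parentheses after a left-out library hold the adjusted p without it. In MUT and GcKO against WT, these 3 were called higher under each scaling tried.

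Of 5 tested genes of the p97 segregase, which pulls proteins out of membranes and complexes for degradation, 1 was called higher in MUT and 2 in GcKO, against 9.46 and 8.71% of all tested genes, and 5 genes are too few to set apart from those shares. Faf1, a ubiquitin-binding cofactor, had 0.37, 0.85 and 1.82 FPKM in WT, 3.1, 3.18 and 2.7 in MUT, 6.31, 4.02 and 4.54 in GcKO and 1.91, 3.15 and 2.89 in AmcKO oocytes. Mutant values were above WT values, and Faf1 rose by 1.05 ± 0.32 in MUT (adjusted p = 0.0325), a call lost without WT replicate 4 (0.0893), WT replicate 5 (0.066), MUT replicate 1 (0.0824), MUT replicate 2 (0.0876) or MUT replicate 3 (0.0665), and by 1.61 ± 0.32 in GcKO (adjusted p = 0.00315). Nploc4, part of the adaptor that recruits p97 at the endoplasmic reticulum, had 5.06, 2.86 and 3.51 FPKM in WT, 8.14, 8.12 and 6.13 in MUT, 11.9, 12.2 and 6.68 in GcKO and 6.21, 1.52 and 4.83 in AmcKO oocytes. It rose by 1.21 ± 0.37 in GcKO (adjusted p = 0.0351), lost without WT replicate 5 (0.116), WT replicate 6 (0.0958), GcKO replicate 1 (0.14) or GcKO replicate 2 (0.128), with 0.83 ± 0.37 in MUT (adjusted p = 0.133). Parentheses after a left-out library hold the adjusted p. Quantile normalization and the abundance correction lost the MUT call of Faf1 (adjusted p = 0.122 and 0.138) and the GcKO call of Nploc4 (0.0912 and 0.117).

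Among 6 tested ubiquitin genes and E1 enzymes, 2 were called lower (against 11.3 and 11.4% of all tested genes) and 1 higher (against 9.46 and 8.71%) in both MUT and GcKO. Ubb, a polyubiquitin gene, was the most abundant of all partners, with 23322, 23143 and 23832 FPKM in WT, 11208, 12328 and 10991 in MUT, 8047, 10839 and 12147 in GcKO and 19879.6, 20469 and 19413 in AmcKO oocytes. It fell by 1.03 ± 0.16 in MUT (adjusted p = 0.000766) and 1.20 ± 0.16 in GcKO (adjusted p = 0.000271), but it was called in the opposite direction, higher, under quantile normalization (0.50 and 0.46, adjusted p = 0.00105 and 0.00229) and the abundance correction (0.56 and 0.41, adjusted p = 0.00265 and 0.0148). Rps27a, which encodes ubiquitin fused to a ribosomal protein, had 93.2, 74.7 and 147 FPKM in WT, 61.5, 37.4 and 56.8 in MUT, 31.4, 45.3 and 48.3 in GcKO and 55, 78.1 and 57 in AmcKO oocytes. It fell by 0.98 ± 0.27 in MUT (adjusted p = 0.0204), a call lost without WT replicate 4 (0.0532), WT replicate 6 (0.095), MUT replicate 2 (0.106) or MUT replicate 3 (0.0577) with the adjusted p in parentheses, and by 1.28 ± 0.27 in GcKO (adjusted p = 0.00434), and equal sums gave 0.01 in MUT with its sign turned. Ubiquitin genes share coding repeats, so the assignment of fragments among them is uncertain. Uba1, the main enzyme that activates ubiquitin, had 4.91, 4.63 and 2.78 FPKM in WT, 7.72, 7.3 and 9.05 in MUT, 11.3, 7.53 and 9.14 in GcKO and 4.95, 6.89 and 5.48 in AmcKO oocytes. It rose by 0.84 ± 0.26 in MUT (adjusted p = 0.0327), lost without WT replicate 6 (0.0861), MUT replicate 1 (0.0685), MUT replicate 2 (0.0603) or MUT replicate 3 (0.0966), and by 1.02 ± 0.26 in GcKO (adjusted p = 0.0125), lost without GcKO replicate 1 (0.0554). Quantile normalization lost the MUT calls of Rps27a and Uba1, the abundance correction those and the GcKO call of Uba1, and equal sums both calls of Ubb and of Rps27a.

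Of 3 tested regulators of subunit genes, 1 was called, higher in both comparisons (against 9.46 and 8.71% of all tested genes). Nfe2l1, a transcription factor of the endoplasmic reticulum that raises subunit transcription when the proteasome is short of capacity, had 2.89, 4.5 and 2.81 FPKM in WT, 9.81, 9.05 and 6.88 in MUT, 10.8, 8.03 and 5.76 in GcKO and 3.69, 3.91 and 5.4 in AmcKO oocytes. Mutant values were above those of WT and AmcKO, and Nfe2l1 rose by 1.13 ± 0.28 in MUT (adjusted p = 0.0122), lost without MUT replicate 1 (0.0506), and by 1.05 ± 0.28 in GcKO (adjusted p = 0.0178), lost without WT replicate 4 (0.0514), WT replicate 6 (0.0528), GcKO replicate 1 (0.0825) or GcKO replicate 2 (0.0501), where parentheses hold the adjusted p without that library. The abundance correction lost both calls (adjusted p = 0.0536 and 0.0836) and quantile normalization the GcKO call (0.0657).

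Promoters were read for the members because, with FPKM as deposited, many of them were called lower in MUT and GcKO. RefSeq promoters of GRCm38.p6, each 300 bases long and covering the start of the gene, were found for 42 of the 50 members. The core TGACNNNGC of the antioxidant response element, to which NFE2L1 and its relatives bind, was searched on both strands and was in 6 of the 42 (14.3%) and in 12.5% of all 27025 promoters. CCAAT, the box bound by NF-Y, was in 15 members (35.7%) and in 37.9% of all promoters, and CCGGAAG, a core of sites of ETS factors, in 14 members (33.3%) and in 9.12%. Of the members with a promoter, 14 were called lower in MUT and 23 were tested and not called lower. The antioxidant core was in 3 and 3 of these, CCAAT in 8 and 5, and CCGGAAG in 3 and 11. These are matches of letters and no test was made of them. Shown are Psmb6 and Psmb5, constitutive proteolytic subunits (Psmb7 has no entry), and Psme3, the member with the highest rise, with matches in capitals.
Psmb6 (chr11:70525107-70525406, forward strand): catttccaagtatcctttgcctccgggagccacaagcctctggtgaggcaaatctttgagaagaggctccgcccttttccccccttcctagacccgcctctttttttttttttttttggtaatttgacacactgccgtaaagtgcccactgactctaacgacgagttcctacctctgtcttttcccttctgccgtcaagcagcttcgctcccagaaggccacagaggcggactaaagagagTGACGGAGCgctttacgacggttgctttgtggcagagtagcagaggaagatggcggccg
Psmb5 (chr14:54617946-54618245, reverse strand): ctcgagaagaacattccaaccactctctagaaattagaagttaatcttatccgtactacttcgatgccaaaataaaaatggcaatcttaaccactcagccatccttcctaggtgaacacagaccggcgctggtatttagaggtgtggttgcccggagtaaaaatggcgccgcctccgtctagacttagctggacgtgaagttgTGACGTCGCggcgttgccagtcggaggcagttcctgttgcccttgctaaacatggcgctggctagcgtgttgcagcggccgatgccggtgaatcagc
Psme3 (chr11:101315963-101316262, forward strand): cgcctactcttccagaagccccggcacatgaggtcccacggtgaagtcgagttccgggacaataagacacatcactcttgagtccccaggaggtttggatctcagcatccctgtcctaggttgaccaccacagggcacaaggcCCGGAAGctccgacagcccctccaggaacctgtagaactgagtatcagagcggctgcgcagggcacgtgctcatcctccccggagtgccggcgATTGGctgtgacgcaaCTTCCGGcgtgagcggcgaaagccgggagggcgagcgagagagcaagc

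Psmb6 and Psmb5 each hold 1 match to the antioxidant core and none to the other letters, and Psme3 holds 1 CCAAT and 2 CCGGAAG matches. Psmb6 was called lower, Psmb5 was not called and Psme3 was called higher in MUT and GcKO, with the sign of Psmb6 turned by equal sums.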

How the data were processed

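RNA-Seq was performed on 12 libraries of 20 oocytes each. The authors aligned reads of 150 nt to mm10 with TopHat2 2.0.13 and calculated FPKM with Cufflinks 2.2.1, per the submitters' notes. Those notes also name Cuffnorm and Cuffdiff, and what scaling between libraries they brought was not checked. The deposited FPKM were used without rescaling. The annotation behind them is not stated, and coordinates are those of GENCODE M21. The authors' 6 comparison columns were not used. Genes with at least 1 FPKM in at least 1 library (11233) were tested as log2(FPKM + 1) with limma 3.58.1 (R 4.3.3, variance trend, all 12 libraries in 1 fit, 8 residual degrees of freedom). Calls required p under 0.05 after Benjamini-Hochberg adjustment across every tested gene. Summaries used Python 3.11.15. The code was tested on simulated data. Members and lists were chosen with earlier results of these data known. Named are the proteolytic, tissue-restricted, ubiquitin-binding and activator genes, the most abundant member and the lowest and highest fold change in MUT of each role, members called against most others or in the other comparisons, and called partners. Alternatives changed the pseudocount, filter, scaling, length or abundance correction, variance model, groups, threshold and libraries.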

Additional observations from a re-analysis of the deposited data

How the results depend on the processing

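Processing moved the counts and several signs, and the cause was not tested. The difference between the median log2 fold change of the members and that of all tested genes stayed negative in MUT against WT, at -0.61 as reported, -0.85 with a pseudocount of 0.1, -0.44 without a filter, -0.42 with equal FPKM sums, and -0.25 under quantile normalization and under loess correction for mean abundance. In GcKO against WT it was -0.71 as reported, -0.88 with the pseudocount of 0.1, -0.50 at a mean FPKM of at least 5, -0.33 with equal sums, -0.29 under quantile normalization and -0.30 under the abundance correction. Against AmcKO, equal sums, quantile normalization and the abundance correction gave -0.14, -0.07 and -0.07 in MUT and -0.11, -0.06 and -0.04 in GcKO. In AmcKO against WT the last 2 gave -0.04 and -0.08. A correction for transcript length, tried on these medians after seeing the data, gave -0.31 in MUT and -0.40 in GcKO against WT, -0.17 and -0.18 against AmcKO, -0.21 in AmcKO against WT and -0.06 in GcKO against MUT.

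The number of members called in MUT against WT, 21 as reported, was 13 under quantile normalization, 13 under the abundance correction and 12 with a fold change over 2. The 12 were 10 lower (22.7%, against 6.7% of all genes) and 2 higher (4.55%, against 6.45%). In GcKO against WT, also 21, the number was 10 under quantile normalization, 12 under the abundance correction, 13 where only the 2 groups were fitted, 12 with a fold change over 2 and 13 at an adjusted p under 0.01. In the last 3, 27.3, 25.0 and 27.3% of members were called lower, against 7.46, 6.37 and 7.66% of all genes. In each of these 3, 2.27% of members were called higher, against 3.65, 5.84 and 2.55%. In MUT against AmcKO the number was 7 as reported, 11 at a mean FPKM of at least 5, 13 with equal sums, 4 without the variance trend, 3 with a fold change over 2 and 4 at an adjusted p under 0.01. The 11 were 9 lower (24.3%, against 15.9% of all genes) and 2 higher (5.41%, against 4.56%). The 13 were 2 lower and 11 higher, while the 7 were all lower. The last 3 counts were all lower (9.09, 6.82 and 9.09%, against 2.57, 2.47 and 2.17% of all genes). In GcKO against AmcKO the number was 5 as reported, 8 at a mean FPKM of at least 5 (21.6%, against 15.7% of all genes called lower) and 10 with equal sums. The 10 were 2 lower and 8 higher, while the 5 and the 8 were all lower. It was 3 under quantile normalization, 2 under the abundance correction, 2 without the variance trend, 2 with a fold change over 2 and 3 at an adjusted p under 0.01, all lower. These were 6.82, 4.55, 4.55, 4.55 and 6.82%, against 1.43, 1.31, 1.53, 1.99 and 1.84% of all genes. With only the 2 groups it was 0. In AmcKO against WT and GcKO against MUT, 0 were called whichever library was left out.

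With equal FPKM sums, the members with a negative log2 fold change went from 30 to 11 of 44 in MUT against WT, from 34 to 13 in GcKO against WT, from 27 to 20 in AmcKO against WT, from 28 to 26 in GcKO against MUT, from 28 to 10 in MUT against AmcKO and from 31 to 7 in GcKO against AmcKO. Named here are only some of the turned signs, those of genes named in the report against WT and of calls against AmcKO. Equal sums turned them in MUT against WT (Psmb6 0.21, Psmd4 0.66, Psma4 0.13, Psmb2 0.17, Psmf1 0.34, Psmg4 0.64, Psmd10 0.04, Psmc2 0.22, Akirin2 0.07, Pomp 0.44, Rps27a 0.01), in GcKO against WT (Psmb6 0.31, Psmd4 0.73, Psmd14 0.46, Psma4 0.17, Psmb2 0.41, Psmc6 0.11, Psmc3 0.75, Psmd7 0.12, Psmf1 0.29, Psmg4 0.61, Psmc2 0.38, Akirin2 0.19, Pomp 0.58) and in GcKO against AmcKO (Psma7 0.12). Quantile normalization did so in MUT (Psmd4 0.15, Psmb2 0.02, Psmc3 -0.18, Psmg4 0.21, Pomp 0.11, Ubb 0.50) and in GcKO (Psmd4 0.21, Psmb2 0.30, Psmg4 0.19, Pomp 0.31, Ubb 0.46). The abundance correction did so in MUT (Psmd4 0.12, Psmc3 -0.28, Psmg4 0.21, Pomp 0.13, Ubb 0.56) and in GcKO (Psmd4 0.21, Psmb2 0.23, Psmg4 0.20, Pomp 0.28, Ubb 0.41), and the correction for transcript length brought Psmc3 in GcKO to 0.00. The share of a library held by the members was 0.364% in WT, 0.397% in MUT, 0.403% in GcKO and 0.356% in AmcKO without Psma2.

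Leaving out 1 library at a time, the median difference ranged from -0.74 to -0.55 in MUT against WT, from -0.71 to -0.61 in GcKO against WT, from -0.36 to -0.19 in AmcKO against WT, from -0.18 to 0.04 in GcKO against MUT, from -0.38 to -0.18 in MUT against AmcKO and from -0.38 to -0.25 in GcKO against AmcKO. The count of calls ranged from 4 to 7 in MUT against AmcKO and from 3 to 7 in GcKO against AmcKO. Psmc3 ranged from -0.35 to 0.26 in MUT and from -0.52 to 0.16 in GcKO, and it rests on few fragments, as do Psma3, Psmd3 and Psmd13, so depth limits what can be said of them.

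With the label number as a block, 0 members and 0 of all 11233 tested genes were called in AmcKO against WT and in GcKO against MUT, where 24 and 23 genes were called without it, so the members' 0 says nothing of them. Deviations from the group mean of libraries with the same number correlated at -0.018, 0.041 and -0.041 between MUT and GcKO. Between WT and AmcKO they correlated at 0.025, 0.015 and -0.032, and not every library correlated best with its own number. With the group mean removed and so few pairs, these values cannot show whether the numbers mark rounds of collection.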
